A study of Solanum tuberosum with 6 samples.

Results

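The miRNAs miR7979 to miR8052 are a run of consecutively numbered families annotated in potato, and their abundance was examined in small RNA of potato leaves (cv. Shepody). The sequences were taken from the miRNA table of the study by name: every sequence whose name gives a species prefix, then miR in lower case and a family number from miR7979 to miR8052, in any length variant and from either hairpin arm. The table held 45 such sequences among 910, of 39 families, and all 45 carry the potato prefix (stu-). Predicted hairpin products with family numbers in the same range, which the authors wrote with MIR in capitals, are described separately. The abundant stu-miR8036-3p is given apart from the other 44. No other species was sequenced, so whether these miRNAs are restricted to the potato lineage was not tested.

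The control group was 3 libraries (C1, C3 and C5) of leaves from plants sprayed with water. The KPhi group was 3 libraries (T2, T4 and T6) from plants sprayed with a commercial potassium phosphite product, used at 1% (v/v) in water and 5 mL per plant. Phosphite, chemically close to phosphate, is applied to crops to protect them against disease. Spraying of both groups was 21 days after emergence, with harvest of the leaves 72 h later, at 24 days. The series describes the libraries of each group as biological replicates. The deposited tables hold small RNA only, so the leaf identity of the samples was not checked against mRNA markers.

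Plant miRNAs are cut by a Dicer-like enzyme from the stem of a hairpin transcript, mostly to 21 or 22 nt, and guide an Argonaute protein to mRNAs with a matching site. AGO1, the Argonaute of most plant miRNAs, prefers guides that begin with U. Plants also make large amounts of 24 nt siRNAs, mainly from transposons and other repeats. These are loaded into Argonautes of the AGO4 group, which prefer guides that begin with A, and direct DNA methylation at the loci they match. Many miRNAs that are found in only 1 plant lineage are weakly expressed, and some of their hairpins give 24 nt products. No role is stated below for single miRNAs of the block, since no mRNA target was analysed here.

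The libraries held 4133739 to 8025802 mappable reads. The miRNA table took 9.14% to 11.3% of them in C1, C3, C5 and T6, but 4.56% in T2 and 3.66% in T4, so these KPhi libraries stood apart from the third and from the controls. A sequence with 0 reads in a library can have had up to 3 by counting error alone, which in RPM (reads per 1000000 mappable reads) is 0.374 in T2 and 0.726 in C5. Some reads were split into fractions between sequences by the authors, and 9 of the 45 sequences had fractional reads.

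The sequences with enough reads for a test, at least 10 in at least 3 libraries, were 6 of the 45. They are shown 5′ to 3′ as deposited, with T for U, because every test of a sequence of the block between the groups rests on them. Capitals mark the seed, bases 2 to 8, and the suffix of a name gives how the sequence departs from its miRBase entry (L and R for bases gained or lost at the left and right end, ss for a substitution).
stu-miR8036-3p: tATGTCTTtccgatgcctccca
stu-miR8006-5p_1ss14AG: tAGTTTTTggacggcaggggcacc
stu-miR8008b: aAACCCAGaaaagcgacggacagt
stu-miR8007a-5p_1ss10TC: aTGTGGCAcctttcggattttgag
stu-miR8030-5p_1ss2TC: tCGGGTTGgtttggtctcgggtt
stu-miR8000_1ss13TC: aCACCGAAgaaccgacaccgaaga
No seed was shared among these 6. Of all 45 sequences, only stu-miR8007a-5p_1ss10TC and stu-miR8007b-5p_1ss6AG had a seed in common. By its suffix, the latter departs from its miRBase entry at base 6, within that seed.

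Reads of the block came almost wholly from stu-miR8036-3p. Over the 6 libraries it had 24357 reads, 92.2% of the reads of the 45 sequences, and ranked 11 among the 910 sequences of the table. The next, stu-miR8006-5p_1ss14AG, had 1562 reads, 15.6-fold fewer and 75.4% of the reads of the other 44. The sequence after that, stu-miR8008b, had 74 reads. In all, 14 sequences reached 10 reads over the 6 libraries, 31 did not, and 18 of these had at most 2 reads. Such a sequence was at or below the limit that a count of 0 allows in every library.

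**Figure D1:**
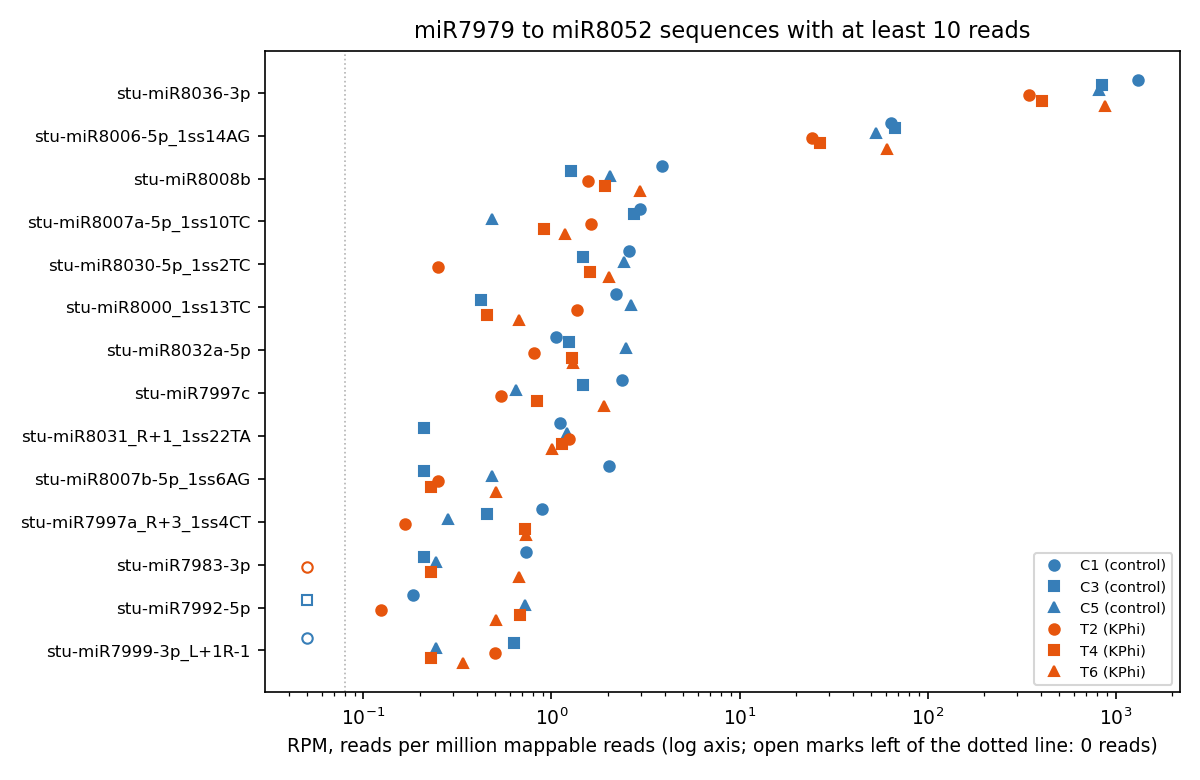
RPM, reads per 1000000 mappable reads (log axis), of the 14 miR7979 to miR8052 sequences with at least 10 reads over the 6 libraries, 1 mark per library, control in blue and KPhi in orange, open marks for 0 reads. stu-miR8036-3p lies between 346 and 1319, stu-miR8006-5p_1ss14AG between 24.2 and 67.4, and every other sequence below 4.

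stu-miR8036-3p, of 22 nt and written as in miRBase, took the largest share in C1. It had 7168, 4032 and 3381 reads (C1, C3, C5) and 2779, 1789 and 5208 (T2, T4, T6). In RPM this was 1319, 849 and 818 in the controls and 346, 407 and 876 (T2, T4, T6). T2 and T4 lay below every control library, whereas T6 lay above C3 and C5, so the groups overlapped. As a share of mappable reads it was 0.0995% ± 0.0281 in control and 0.0543% ± 0.0290 after KPhi (SD, n = 3 each, log2 ratio −0.87). The means differed by more than either SD, but the groups overlapped and the difference did not pass the test (exact two-sided permutation test, p = 0.3, where 3 libraries against 3 cannot go below 0.1). The value rested in part on T6: without T6 the log2 ratio was −1.40, and the 2 remaining KPhi libraries lay below all controls (exact permutation test, p = 0.1, the smallest that 3 against 2 can give).

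The size of this difference depended on what the reads were set against. Within the miRNA table, stu-miR8036-3p was 1.17%, 0.862% and 0.895% of the reads (C1, C3, C5) and 0.760%, 1.11% and 0.937% (T2, T4, T6). On this scale T4, which had the smallest table, was second only to C1, and the log2 ratio was −0.06 (exact permutation test, n = 3 each, p = 0.8). The miR166 family, the most abundant miRNAs of the table, was then left out of the total. The shares became 7.10%, 5.17% and 4.80% in control and 2.92%, 2.78% and 5.02% in KPhi libraries, with a log2 ratio of −0.67 (exact permutation test, n = 3 each, p = 0.2). In T2 and T4 the whole miRNA table was also the smallest part of the mappable reads, and its part in the difference was not tested. In small RNA of a whole leaf, fewer cells of a type and less miRNA per cell cannot be told apart.

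**Figure D2:**
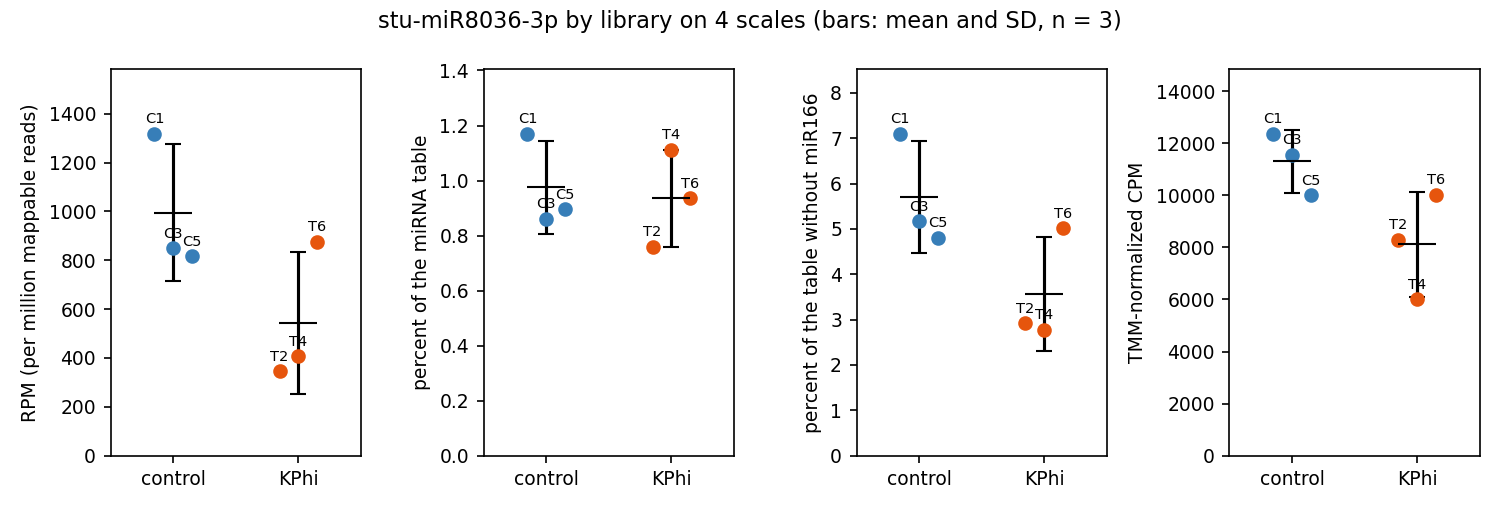
stu-miR8036-3p in each library on 4 scales: RPM, percent of the miRNA table, percent of the table without the miR166 family, and CPM after TMM scaling. Points are libraries and bars give the mean and SD (n = 3). T6 lies within the range of the controls on every scale, and T4 is the lowest KPhi library on the TMM scale at 6012 and the highest as a share of the table at 1.11%.

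To compare the groups across all sequences, reads were rounded and scaled by TMM, which evens out the bulk of the sequences between libraries, and tested with edgeR's quasi-likelihood test. The TMM factor was 1.85 in T4 but 0.746 (C3) to 0.947 (C1) in the other libraries, so values on this scale lean on a large correction of T4. Of the 165 sequences tested in the whole table, 0.00% had an adjusted p under 0.05, 16 (9.70%) had an unadjusted p under 0.05, and 28 (17.0%) had groups that did not overlap. Of the 6 tested miR7979 to miR8052 sequences, 0 were called, 0 had an unadjusted p under 0.05 and 0 had groups that did not overlap. DESeq2 also called 0 of the 165, with 27 at an unadjusted p under 0.05, and limma-trend 0, with 9. Neither had any of the 6 among them. Of the 6, 5 had a log2 fold change below 0, beside 93 of the 165 (56.4%), but 3 with library size alone and 6 with mappable reads. Under each of these scalings 5 of the 6 lay below the median of all sequences. That count was lower in some other settings: 4 with limma-trend, 3 without T4, and 2 of the 4 still tested without T6. The median of the 6 was −0.36 beside −0.13 over all sequences tested. Without T4 it was 0.05 beside 0.08, with 3 of the 6 below 0, and with library size alone it was 0.03 beside 0.35.

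The median of all sequences tested moved with the scaling, from −0.13 with TMM to 0.35 with library size alone and −0.49 with mappable reads, so fold changes are also given relative to it. stu-miR8036-3p was at 12369, 11555 and 10001 CPM (C1, C3, C5) and at 8289, 6012 and 10026 CPM (T2, T4, T6). T6 was just above C5, and the other KPhi libraries were below all controls. Its log2 fold change was −0.48 ± 0.41 (SE, n = 3 each, edgeR's quasi-likelihood test, adjusted p = 0.614), which is −0.35 relative to the median of all sequences. Under the 17 other settings and samplings the relative value stayed between −0.55 and −0.26, and none gave a call.

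stu-miR8006-5p_1ss14AG, of 24 nt, was the only other sequence of the block with over 100 reads in every library. It had 348, 320 and 220 reads (C1, C3, C5) and 194, 118 and 362 (T2, T4, T6). In RPM it ranged from 53.2 to 67.4 in control and from 24.2 (T2) over 26.9 (T4) to 60.9 (T6) after KPhi. As for stu-miR8036-3p, T2 and T4 lay below all controls on this scale and T6 among them. After TMM scaling the levels were 723 ± 170 CPM in control and 557 ± 151 CPM after KPhi (SD, n = 3 each), with T2 just below C1 and T6 above C1 and C5. The log2 fold change was −0.37 ± 0.44 (SE, edgeR's quasi-likelihood test, adjusted p = 0.731), which is −0.24 relative to the median of all sequences. It was 0.061 with library size alone and 0.027 without C3, settings that also raised the median of all sequences, and relative to that median it stayed between −0.46 and −0.13 in all settings. The ratio of stu-miR8036-3p to this sequence was 20.6, 12.6 and 15.4 (C1, C3, C5) and 14.3, 15.2 and 14.4 (T2, T4, T6). The KPhi ratios all lay within the range of the controls.

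The other 4 tested sequences were seen at under 4 RPM. stu-miR8008b had 21, 6 and 8.5 reads (C1, C3, C5) and 12.5, 8.5 and 17.5 (T2, T4, T6). It was the only 1 of the 6 with a value above 0, a log2 fold change of 0.31 ± 0.48 (SE, edgeR's quasi-likelihood test, adjusted p = 0.794), which is 0.44 relative to the median of all sequences. It became −0.17 with mappable reads, a scaling under which the median of all sequences was −0.49, and relative to the median it stayed between 0.07 and 0.53 in all settings in which it was tested. stu-miR8007a-5p_1ss10TC had 16, 13 and 2 reads (C1, C3, C5) and 13, 4 and 7 (T2, T4, T6). C5 was the lowest library of either group, and the log2 fold change was −0.14 ± 0.67 (SE, edgeR's quasi-likelihood test, adjusted p = 0.900), which is −0.01 relative to the median. Relative to the median it lay between −0.58 without C5 and 0.26 without T6, so it had no steady direction.

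stu-miR8030-5p_1ss2TC had 14, 7 and 10 reads (C1, C3, C5) and 2, 7 and 12 (T2, T4, T6). T2, the deepest library, had the fewest, and T4 and T6 were within the range of the controls after TMM scaling. The log2 fold change was −0.46 ± 0.55 (SE, edgeR's quasi-likelihood test, adjusted p = 0.731), which is −0.33 relative to the median. This rested on T2: without T2 it was −0.06, or 0.07 relative to the median. stu-miR8000_1ss13TC had 12, 2 and 11 reads (C1, C3, C5) and 11, 2 and 4 (T2, T4, T6). Libraries of both groups were at 2 and at 11 reads, and the log2 fold change was −0.35 ± 0.73 (SE, edgeR's quasi-likelihood test, adjusted p = 0.821), which is −0.22 relative to the median. It became 0.15 without T4 and 0.14 without T6, or 0.07 and 0.17 relative to the median.

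**Figure D3:**
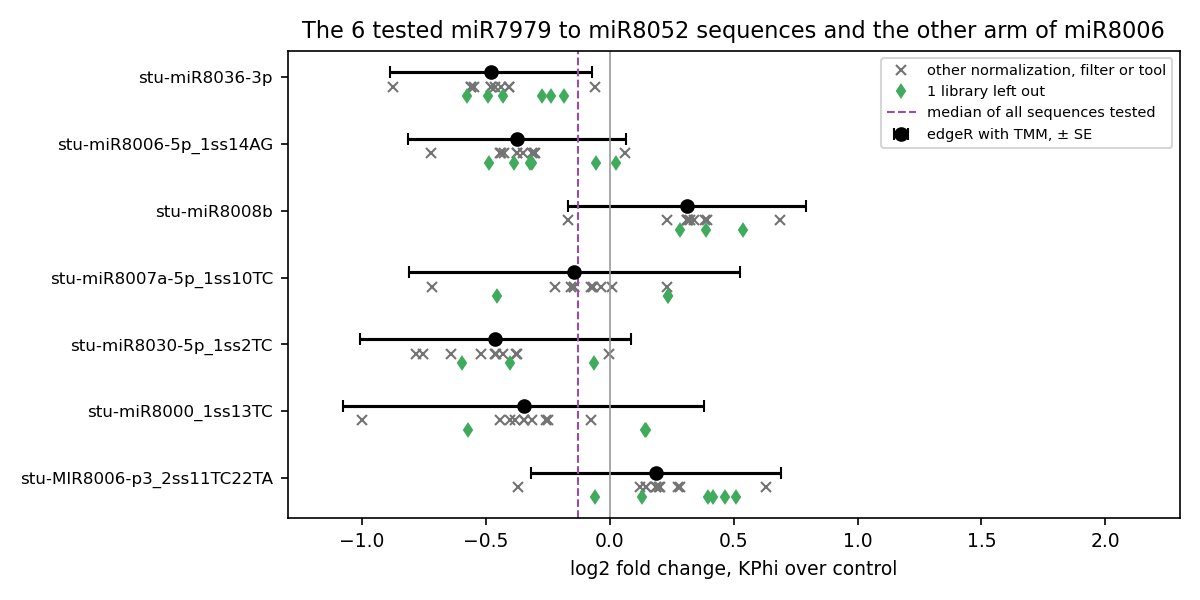
Log2 fold change, KPhi over control, of the 6 tested sequences and of the other arm of miR8006 (edgeR with TMM, black points with SE), with the same value under other normalizations, filters and tools (grey) and with 1 library left out (green). The dashed line is the median of the 165 sequences tested, −0.13. stu-miR8036-3p stays below 0 under every setting shown, between −0.87 and −0.06, and none of the values passed the threshold.

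The remaining 8 sequences with at least 10 reads had too few in each library for the test. stu-miR8032a-5p had 5.75, 5.92 and 10.2 reads (C1, C3, C5) and 6.5, 5.67 and 7.75 (T2, T4, T6). stu-miR7997c had 12.8, 7 and 2.67 reads in the controls and 4.33, 3.67 and 11.3 (T2, T4, T6). stu-miR8031_R+1_1ss22TA had 6, 1 and 5 reads in the controls and 10, 5 and 6 (T2, T4, T6). The ranges of the groups overlapped for all 3. stu-miR8007b-5p_1ss6AG had 20 reads, of which 11 were in C1 and 1 to 3 in each other library. stu-miR7997a_R+3_1ss4CT had 17 reads, with at most 4.83 in a library. stu-miR7983-3p, stu-miR7992-5p and stu-miR7999-3p_L+1R-1 had 11 reads each, with at most 4 in a library and 0 in T2, C3 and C1, respectively.

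Together, the 44 sequences other than stu-miR8036-3p had 478, 381 and 288 reads (C1, C3, C5) and 274.5, 176 and 476 (T2, T4, T6). In RPM this was 79.2 ± 9.25 in control and 51.4 ± 24.9 after KPhi (SD, n = 3 each, log2 ratio −0.62), with T2 at 34.2, T4 at 40.1 and T6 at 80.0. T6 lay within the range of the controls, and without it the log2 ratio was −1.09. As a share of the miRNA table the log2 ratio turned to 0.20. Most of these reads were stu-miR8006-5p_1ss14AG. The 39 sequences below the filter gave 287.7 reads in all, 9.32 ± 2.80 RPM in control and 8.62 ± 3.55 after KPhi (SD, n = 3 each).

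Few of the sequences were seen everywhere. Each library showed 21 to 32 of the 45, with 30, 21 and 23 (C1, C3, C5) and 23, 24 and 32 (T2, T4, T6). T2 had the most mappable reads but not the most sequences. Seen in all 6 libraries were 12 of the 45, and 10 were seen in 1 library. In both groups 32 were seen, 4 only in control and 9 only in KPhi libraries. The former had at most 2 reads and the latter at most 4, so being seen in 1 group only could not be told from counting error at this depth.

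The block was compared by length and first base with other sequences of the table. Of the 45, 24 (53.3%) were of 24 nt, 8 of 21 nt and 4 of 22 nt, and the lengths ranged from 15 to 26 nt. Of the 167 other sequences written miR, 13.8% were of 24 nt and 46.1% of 21 nt. Of the 388 candidates that the authors predicted from the potato genome (PC), 68.0% were of 24 nt and 12.4% of 21 nt. By length the block therefore lay between these sets, closer to the PC candidates. This is a description, since the sequences of a set are not independent.

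Among the 14 sequences with at least 10 reads, 11 were of 24 nt and 0 of 21 nt. The other 3 were stu-miR8036-3p and stu-miR8032a-5p with 22 nt and stu-miR8030-5p_1ss2TC with 23 nt. All 8 sequences of 21 nt had between 2 and 7 reads. The first base was A in 24 of the 45 (53.3%) and T in 19 (42.2%), against 19.8% A and 59.3% T among the other miR sequences and 62.1% A and 25.0% T among the PC candidates. Among the 24 nt sequences alone, 66.7% began with A. At that length it was 83.0% of the PC candidates, 43.5% of the other miR sequences and 58.0% of the MIR sequences in the same range of family numbers. These shares count each sequence once. By reads, the 24 nt sequences held 1921 of the 26430 reads of the block.

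**Figure D4:**
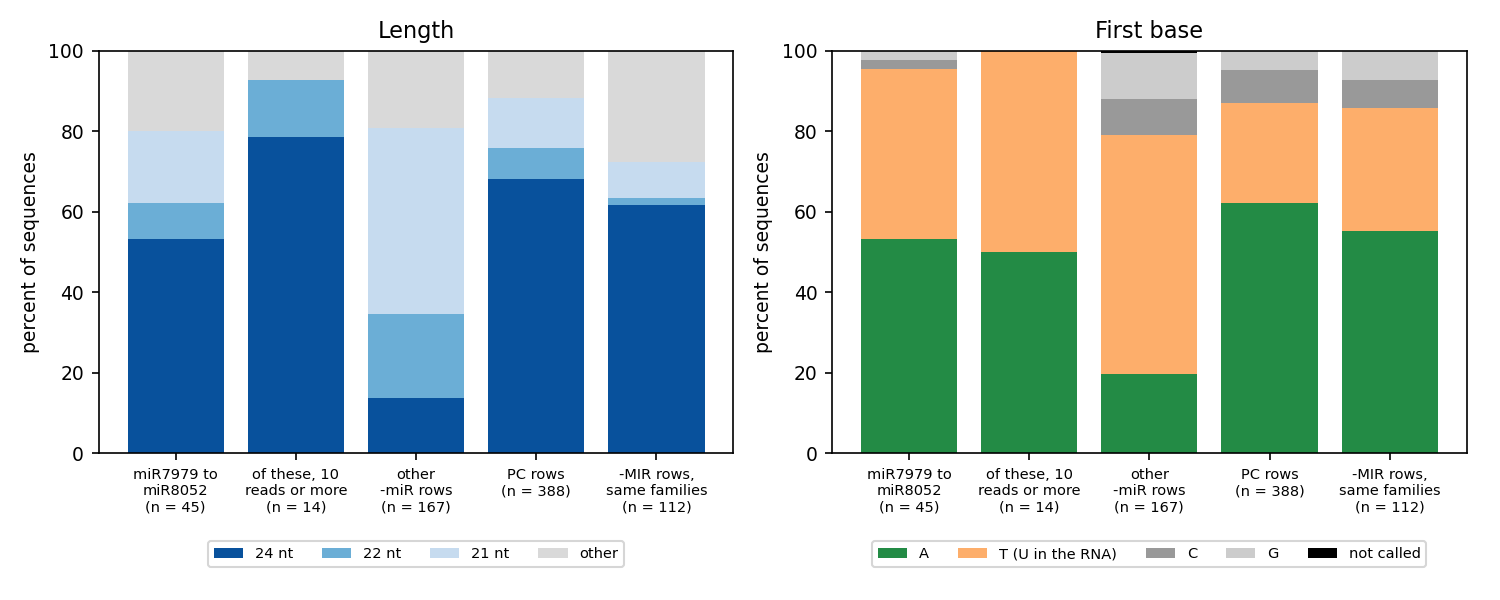
Percent of sequences by length (left) and by first base (right), each sequence counted once, for the 45 miR7979 to miR8052 sequences, the 14 of them with at least 10 reads, the other sequences written miR, the PC candidates and the sequences written MIR with family numbers in the same range. The dark blue part, 24 nt, is 53.3% of the 45 and 13.8% of the other miR sequences, and every sequence of the 14 began with A or T.

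Names and matches to miRBase varied. Without a suffix, and so the same as the miRBase entry, were 13 of the 45, among them stu-miR8036-3p, stu-miR8008b, stu-miR8032a-5p and stu-miR7997c. A substitution was given for 22 and a shifted end for 20. The 4 shortest, of 15 or 16 nt, from miR7987, miR8015, miR8022 and miR8028, had 5 reads together. The authors' group 1a, sequences matched to potato precursors, held 40 of the 45. Median GC content was 38.1%, from 20.0% to 63.6%. For the 14 sequences with at least 10 reads it was 47.9%, and for the other 31 it was 38.1%.

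Gene names in RefSeq's potato annotation list 100 miRNA genes of 73 families between MIR7979 and MIR8052. A sequence written miR was in the table for 39 of these families, and a row of either kind for 59. For the other 14 no sequence was analysed here. Their positions are not given, because the build behind the deposited table is not given in the sources used here.

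Sequences written MIR with family numbers in the same range gave no call either. The table held 112 of them, with 2927 reads, of which 9 passed the filter. They were taken by family number, and only 16 of the 39 families of the block had such a sequence. The 9 therefore include sequences of families without a sequence of the block, such as miR7985. Of these 9, 0 were called by edgeR, 0 had an unadjusted p under 0.05, and their median log2 fold change was −0.42 beside −0.13 over all sequences tested. It was 0.02 with library size alone and 0.01 without C5, with fewer sequences tested in the latter, so its direction was not steady. The groups did not overlap for 2 of the 9, beside 17.0% of all sequences tested. These were stu-MIR7985-p5 and stu-MIR7984a-p5, which are named here because of these values. The other arm of miR8006, stu-MIR8006-p3_2ss11TC22TA, had 97, 31 and 52 reads (C1, C3, C5) and 70, 43 and 60 (T2, T4, T6). Its log2 fold change was 0.19 ± 0.50 (SE, edgeR's quasi-likelihood test, adjusted p = 0.833), which is 0.32 relative to the median. With mappable reads it was −0.37 and without T2 −0.06, or 0.12 and 0.07 relative to the median, and it lay below the median only without C3 (−0.08 relative to it). The 5p arm had more reads than this arm in every library, 3.59, 10.3 and 4.23 times as many (C1, C3, C5) and 2.77, 2.74 and 6.03 times (T2, T4, T6).

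Sequences near to those of the block were then sought, because reads of near-identical sequences can be split or shared. With at least 18 aligned bases and at most 2 mismatches, 13 of the 45 had a near match elsewhere in the table, 6 on the same strand and 9 on the opposite strand. stu-miR8036-3p had 1, the PC candidate PC-3p-22248_95, which starts 1 base later and ends 1 base further on. The pair is shown because 21 bases stand under both names, with these shared bases in capitals.
stu-miR8036-3p: tATGTCTTTCCGATGCCTCCCA
PC-3p-22248_95: ATGTCTTTCCGATGCCTCCCAt
The shifted form had 138 reads, 0.567% of those of stu-miR8036-3p, and its log2 fold change was −0.43 ± 0.54 (SE, edgeR's quasi-likelihood test, adjusted p = 0.743). In the same way PC-5p-52991_32 was stu-miR8032a-5p shifted by 1 base and had 22.5 reads, 53.8% of those of stu-miR8032a-5p.

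Beyond that shifted form, the closest sequences to stu-miR8036-3p in the table were of miR482, a family of 22 nt miRNAs that targets mRNAs of NBS-LRR resistance proteins. Among the 10 next best ungapped overlaps of at least 16 bases, 9 were with miR482 sequences. These 9 are variants within 1 family, so they are not independent. Only 4 of them shared at least 14 bases. Others, such as stu-miR482c, shared 13 bases (of 16 aligned). PC-5p-98419_13 and sly-MIR156d-p3_1ss1CA (of 21 aligned) and PC-5p-117685_10 (of 22 aligned) also reached 13. The cut at 10 fell among these ties. sly-miR482e-3p and stu-miR482e-3p are shown because of their likeness in the stretch after the first 4 bases of stu-miR8036-3p. Capitals in the first pair of lines mark the bases shared by stu-miR8036-3p and sly-miR482e-3p, and in the second pair those shared by stu-miR8036-3p and stu-miR482e-3p.
stu-miR8036-3p: tatgTCTTTCCgAtgCCTCCCA
sly-miR482e-3p: TCTTTCCtActCCTCCCAtacc
stu-miR8036-3p: tatgTCTTtCCgATgCCtCCCA
stu-miR482e-3p: TCTTgCCaATaCCgCCCAttcc
Of 18 aligned bases, 15 were shared with sly-miR482e-3p, which differed by G12T, T14C and G15T (base of stu-miR8036-3p, position from its 5′ end, base of the other). With stu-miR482e-3p 14 were shared, with T9G, G12A, G15A and T18G. Both begin 4 bases further on, so their seeds differ from that of stu-miR8036-3p. This is a likeness of letters and says nothing of shared targets or origin. Of the 44 others, stu-miR8039, with 2 reads, had the same seed as stu-miR482c, and 13 of 21 bases in all were shared.

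Within the block, the detected sequences of lettered members of miR7997, miR8008 and miR8007 differed by a few bases. stu-miR7997c and stu-miR7997a_R+3_1ss4CT differed by A3G, within the seed. By its suffix, the latter departs from its miRBase entry at base 4, also in the seed, and by 3 bases gained at the right end. The single difference therefore holds for the detected sequences and not for the entries. Both sequences had fractional reads, and with which sequences or loci these reads were shared was not tested. stu-miR8008b and stu-miR8008a differed by A2T, A3T and C4T, also in the seed, and had 74 and 2 reads. stu-miR8007a-5p_1ss10TC and stu-miR8007b-5p_1ss6AG differed by C10T, C14T, G16A and T21C, outside the seed, and had 55 and 20 reads. By their suffixes, the former departs from its miRBase entry at base 10 and the latter at base 6, within the seed. The shared seed and C10T therefore hold for the detected sequences and not for the entries. All these sequences are shown as pairs, with the shared bases in capitals.
stu-miR7997c: ATaTTGCTCGGACTCTTCAAAAAT
stu-miR7997a_R+3_1ss4CT: ATgTTGCTCGGACTCTTCAAAAAT
stu-miR8008b: AaacCCAGAAAAGCGACGGACAGT
stu-miR8008a: AtttCCAGAAAAGCGACGGACAGT
stu-miR8007a-5p_1ss10TC: ATGTGGCACcTTTcGgATTTtGAG
stu-miR8007b-5p_1ss6AG: ATGTGGCACtTTTtGaATTTcGAG

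Sequences of both arms with at most 2 mismatches between them were in the table for miR8033 and for miR7984c, miR8001a and miR8044, where the other arm was a sequence written MIR. The arms of miR8033 are shown because both belong to the block and pair with each other as the strands of a Dicer product do. Capitals mark bases in Watson-Crick pairs (A with U, G with C), each sequence 5′ to 3′.
stu-miR8033-5p_R-1: TtCCAAAGCTGCAGAAaTGag
stu-miR8033-3p_L-1_1ss17AG: CAaTTCTGCAGCTTTGGgAgt
Of 19 aligned bases 17 were in Watson-Crick pairs, where G facing U, as at base 2 of stu-miR8033-5p_R-1, counts as a mismatch. Each sequence ended in 2 further bases at its 3′ end, the overhang that Dicer enzymes leave. The arms had 7 and 4 reads.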

How the data were processed

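Small RNA of 3 control and 3 KPhi leaf libraries was analysed from the deposited tables. The authors sequenced TruSeq libraries on a HiSeq and used the program ACGT101-miR, which removed reads without adapter, common RNA families and repeats, and mapped the rest by BLAST to potato and tomato miRBase precursors and to the potato genome. The version of ACGT101-miR and the genome build of mapping are not given in the sources used here. The deposited counts (whole reads per library) gave the mappable reads. The deposited expected counts, fractional where the authors split reads between sequences, gave the reads of each sequence. The authors' deposited normalized signal is these reads divided by 1 size parameter per library. It was used only for limma and to derive these size parameters, which served in 1 edgeR alternative. A deposited table of the authors' own comparison, with p-values, means and SDs, was not used.

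Reads were rounded to whole numbers. Those reaching 10 reads in 3 or more libraries (165 of 910) were tested with edgeR 4.0.16 (TMM, quasi-likelihood test, Benjamini-Hochberg over all 165, threshold 0.05). The biological coefficient of variation was 49.8%. SE is the log2 fold change over the square root of its F statistic. CPM values are scaled by TMM. Shares of stu-miR8036-3p were set against each other by an exact permutation test, two-sided. Sums over the block got no test. Alternatives were RLE, no scaling beyond library size, mappable reads, the authors' size parameters, a filter of 10 reads in every library or none, DESeq2 1.42.0, robust dispersion, limma-trend (limma 3.58.1) on log2 of the normalized value plus 1 or plus 0.1, reads not rounded, and leaving out each library. The sequences named are those tested and those with at least 10 reads over the 6 libraries, and others only where a sequence feature is described. The sequences and these choices were made with earlier results of these data known. Replicates are biological by the series' statement, and counting limits cover counting error only. Total miRNA table reads per library were 612257, 467973, 377795, 365835, 160906 and 555977 in C1, C3, C5, T2, T4 and T6. Software was R 4.3.3, Python 3.11.15, matplotlib 3.10.9, scipy 1.17.1, pandas 2.3.3 and numpy 2.4.6.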

Additional observations from a re-analysis of the deposited data

How the results depend on the processing

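No paired analysis was possible because the groups share no replicate number. No setting called any of the 6 tested sequences, and none gave any of them an unadjusted p under 0.05, though 10 reads in every library or leaving out 1 library left 2 to 6 of them to test. Without a filter on low reads edgeR called 4 of the 841 sequences then tested, none of them of the block, and 46 had an unadjusted p under 0.05, against 0 and 16 of 165 with the filter. At that p, DESeq2 counted 27 and limma-trend 9 with either pseudocount, and leaving out 1 library gave 4 to 21. The log2 ratio of the stu-miR8036-3p share of mappable reads was −1.40 to −0.62 with 1 library left out, and −0.67 and −0.06 with the other totals. The summed reads of the other 44 had a log2 ratio of −1.09 to −0.40 with 1 library left out, −0.33 without stu-miR8006-5p_1ss14AG, and 0.20 as a share of the miRNA table, a scale on which T2 and T4 have the smallest totals. The median over the 9 tested MIR sequences ranged from −0.81 to 0.02. Single sequences changed sign as follows, but library size only and mappable reads moved the median of all sequences to 0.35 and −0.49, and under these 2 scalings the sequences named kept their side of the median of all sequences. The log2 fold change of stu-miR8006-5p_1ss14AG became 0.061 with library size only and lay between −0.49 and 0.027 with 1 library left out (0.027 without C3), and that of stu-miR8008b became −0.17 with mappable reads. That of stu-miR8007a-5p_1ss10TC became 0.23 with library size only, 0.0079 with a pseudocount of 0.1, and −0.46 to 0.24 with 1 library left out (0.24 without T4, 0.23 without T6). That of stu-miR8000_1ss13TC was −0.57 to 0.15 with 1 library left out (0.15 without T4, 0.14 without T6). That of stu-MIR8006-p3_2ss11TC22TA became −0.37 with mappable reads and was −0.061 to 0.51 with 1 library left out (−0.061 without T2). The causes were not tested. The 4 least abundant tested sequences had at most 21 reads in a library, which limits their precision.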

Other observations

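Some sequences of the block were complementary to sequences that carry other names. stu-miR8030-5p_1ss2TC, with 52 reads, was complementary to 11 PC candidates over 22 or 23 bases with 1 or 2 mismatches. These 11 had 544 reads together, 272 of them in PC-3p-30526_66. Their summed reads were 141, 86.1 and 24 (C1, C3, C5) and 111, 25.8 and 156 (T2, T4, T6), so that C5 and T4 were lowest, whereas stu-miR8030-5p_1ss2TC was lowest in T2. One of the closest is shown, with the bases in Watson-Crick pairs in capitals and each sequence 5′ to 3′. Its 1 mismatch is G facing U.
stu-miR8030-5p_1ss2TC: TCGGGTTGGTTTGGTCTCGgGTt
PC-3p-54314_31: ACtCGAGACCAAACCAACCCGAat

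stu-miR7997a_R+3_1ss4CT was complementary over 22 bases, with 0 mismatches, to stu-miR5303g_1ss17TC, which had 3.67 reads. Capitals mark the pairing bases.
stu-miR7997a_R+3_1ss4CT: atGTTGCTCGGACTCTTCAAAAAT
stu-miR5303g_1ss17TC: atATTTTTGAAGAGTCCGAGCAAC
In all, 3 sequences of the miR5303 family, with 7 reads together, were complementary to stu-miR7997a_R+3_1ss4CT over at least 19 bases with at most 2 mismatches. Whether these sequences come from the same loci was not tested, since no genome was used here.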
